A study of Ovis aries with 8 samples.

Results

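*OXT*, the gene of oxytocin, was followed through 8 hypothalami of late-gestation sheep fetuses, 1 Agilent expression array per fetus. It was chosen by name: 2 of the 15008 probes on the array, A_70_P039696 and A_70_P039697, are assigned to it by the array design, among 964 gene names found for the array's probes. Both probes were read on all 8 arrays. According to the labels, 4 fetuses received estradiol-3-sulphate at 1 mg per day into the lateral cerebral ventricle from an osmotic mini-pump (the estradiol sulphate group), and 4 co-twins were controls (the vehicle group). The design text calls the controls untreated and gives an infusion of 7 to 12 days, whereas the treatment protocol gives a saline infusion of the co-twin and 7 to 10 days. All fetuses carried catheters placed between days 120 and 127 of gestation, and hypothalami were collected between days 130 and 134. No allele, strain or sex is given. Each array held RNA of a whole hypothalamus, so fewer oxytocin cells and less oxytocin RNA per cell cannot be told apart.

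Oxytocin is made as a precursor with neurophysin I in the magnocellular neurons of the paraventricular and supraoptic nuclei, carried to the posterior pituitary and released into the blood, where it contracts the uterus and ejects milk. Smaller neurons of the paraventricular nucleus send it to the brainstem and spinal cord. The gene lies beside that of its sister hormone vasopressin, and in the RefSeq gene table of the sheep assembly ARS-UI_Ramb_v3.0 the direct neighbour of *OXT* is *AVP*, with *MRPS26* on the other side. The array names no probe for *AVP*, so the sister hormone could not be set beside oxytocin. Estradiol-3-sulphate is a circulating conjugate that steroid sulphatase can turn back into estradiol, a hormone long studied for its action on oxytocin neurons. The comparison addresses which hypothalamic transcripts differ in the fetus after this infusion.

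The probes are 60 bases long and cover bases 442 to 501 and 441 to 500 of the RefSeq transcript named by the design. They are shifted by 1 base and share 59, so they read the same stretch of the same RNA and are not independent measurements. The last 30 bases of each are shown because they place both probes at the 3′ end of the message. Lower case is the probe as deposited, and capitals mark the polyadenylation signal AATAAA.
A_70_P039696: gaattatgacaatgaAATAAAgcctttttt
A_70_P039697: ggaattatgacaatgaAATAAAgccttttt
The capitals begin 15 bases before the end of the first probe and 14 before the end of the second, which is the shift between them. No other part of the oxytocin message is covered, and no genome position is given because the files name no build.

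*OXT* was among the brighter transcripts in every fetus. The deposited processed intensity of probe A_70_P039696 was 23102, 12799, 19534 and 8381 in vehicle replicates 1 to 4, and 8402, 5088, 19498 and 20685 in estradiol sulphate replicates 1 to 4. For probe A_70_P039697 it was 19730, 11543, 16618 and 7689 in the vehicle fetuses, and 6314, 3955, 17726 and 18074 in the estradiol sulphate fetuses. Every one of these spots was well above background and none was saturated, and the scanner software put the error of each intensity at 10.0%. Both probes were brightest in vehicle replicate 1 and dimmest in estradiol sulphate replicate 2.

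The intensity of a probe depends on its sequence as well as on its RNA, so rank describes brightness and not abundance. Ordered from the brightest probe, A_70_P039696 ranked 492, 831, 478 and 918 in vehicle replicates 1 to 4 and 1260, 2135, 788 and 507 in estradiol sulphate replicates 1 to 4. A_70_P039697 ranked 599, 900, 584 and 986, and 1597, 2531, 854 and 604. The first probe was thus brighter than 93.9% to 96.8% of probes in the vehicle fetuses and than 85.8% to 96.6% in the estradiol sulphate fetuses. Estradiol sulphate replicates 1 and 2 held the lowest ranks of the 8 fetuses with both probes. Estradiol sulphate replicates 3 and 4 ranked within the vehicle range with both probes. The median rank over the 8 arrays was 809.5 for A_70_P039696 and 877 for A_70_P039697.

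The arrays of the estradiol sulphate group were brighter as a whole. The 75th percentile of processed intensity was 1584 to 2251 in that group and 969 to 1609 in the vehicle group, a 1.42-fold difference of the group means on the log2 scale (exact two-sided permutation test, p = 0.0571). Of all probes, 77.0% to 83.1% were well above background after estradiol sulphate, against 67.8% to 77.4% in vehicle fetuses. The first position number in the slide barcode was 1 for the estradiol sulphate arrays and 2 for the vehicle arrays. Treatment and this slide position thus cannot be told apart. The second position number equalled the replicate number in both groups. Values are therefore given from here on as log2 intensity minus log2 of the array's 75th percentile, and that choice weighs on the result for *OXT*, as the values without it show further on.

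On this scale probe A_70_P039696 read 3.84, 3.11, 3.91 and 3.11 in vehicle replicates 1 to 4. It read 2.31, 1.32, 3.11 and 3.71 in estradiol sulphate replicates 1 to 4. From the highest, the order was vehicle 3, vehicle 1, estradiol sulphate 4, then estradiol sulphate 3, vehicle 2 and vehicle 4 at the same level, then estradiol sulphate 1 and estradiol sulphate 2. The other probe read 3.62, 2.96, 3.68 and 2.99 in the vehicle fetuses and 1.90, 0.96, 2.98 and 3.51 in the estradiol sulphate fetuses. The groups overlapped with both probes: estradiol sulphate 1 and 2 lay below all 4 vehicle fetuses, and 3 and 4 lay within their range. The vehicle fetuses formed a high pair (1 and 3) and a low pair (2 and 4), and each pair was closer together than the pairs were to each other.

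**Figure D1:**
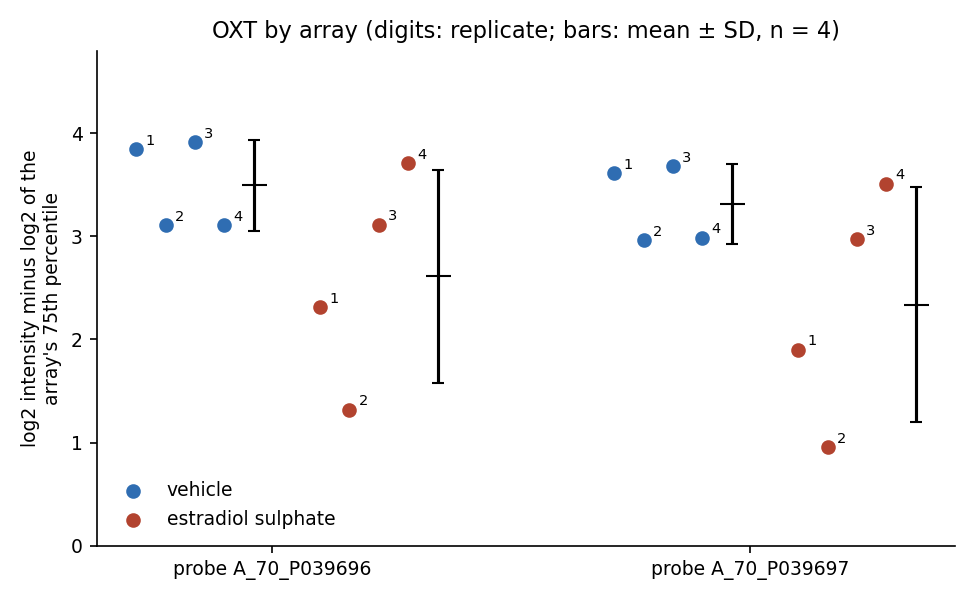
*OXT* level in each of the 8 fetuses, as log2 processed intensity minus log2 of the array's 75th percentile, for each probe; points are fetuses with their replicate number, black bars the group mean ± SD (n = 4). Estradiol sulphate replicates 1 and 2 lie below every vehicle fetus, while replicates 3 and 4 lie among them.

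The group means were lower after estradiol sulphate, and the difference did not pass the test. Probe A_70_P039696 averaged 2.61 ± 1.03 (SD, n = 4) after estradiol sulphate and 3.50 ± 0.44 (SD, n = 4) in vehicle fetuses. The log2 difference was -0.88 with a standard error of 0.46 in limma, a 1.84-fold lower geometric mean (adjusted p = 0.617, exact two-sided permutation p = 0.171). Its 95% interval ran from -1.93 to 0.16, that is from 3.80-fold lower to slightly higher. Probe A_70_P039697 averaged 2.34 ± 1.14 and 3.31 ± 0.39 (SD, n = 4 each), a log2 difference of -0.97 with a standard error of 0.49 (limma adjusted p = 0.606, exact two-sided permutation p = 0.143). The mean of both probes differed by -0.93, 1.90-fold, with p = 0.143 in the exact two-sided permutation test over the 70 splits of the arrays, where the smallest p the design allows is 0.0286. The spread among the treated fetuses was larger than the difference between the groups. The result of the second probe adds nothing independent to the first.

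Against the whole array, 0.00% of the 11749 probes tested passed the adjusted threshold of 0.05 in limma, and 9.06% had an unadjusted p under 0.05 (3.03% lower and 6.03% higher after estradiol sulphate). The split depended on the scaling: 709 were higher and 356 lower as reported, 396 and 297 with quantile normalization, 345 and 753 with median scaling, 344 and 760 with the authors' deposited log2 values, and 5116 and 1 without scaling. The *OXT* probes, ranked 1689 and 1537 by p, were not among the latter. By size they stood further out. Only 24 of the 11749 probes had a lower difference than A_70_P039696 and 18 a lower one than A_70_P039697. Among the 1175 probes of the brightest 10%, 2 lay lower than the first and 0 lower than the second, with a median difference of -0.18 in that class and of 0.04 over all probes tested. Both groups were free of overlap in 5.91% of probes (2.77% with estradiol sulphate lower), which was not so for either *OXT* probe, and 42.5% of all probes tested lay below 0.

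*OXT* varied widely between fetuses given the same treatment. Among estradiol sulphate fetuses the highest level of A_70_P039696 was 5.23-fold the lowest, and 5.88-fold for A_70_P039697. Among vehicle fetuses the same ratio was 1.74 and 1.64. The SD within groups, pooled in the model, was 0.80 and 0.85 on the log2 scale, higher than in 97.0% and 97.6% of the probes tested, whose median was 0.23. Within the brightest 10% of probes, where the median was 0.18, it was higher than in 97.9% and 98.3%. By group, the SD after estradiol sulphate was higher than in 98.6% and 98.9% of probes, and the SD in vehicle fetuses than in 82.7% and 77.3%. The ratio of the SDs, estradiol sulphate over vehicle, was 2.34 and 2.93 against a median of 0.85 over all probes, and 953 and 546 probes had a higher ratio. Without scaling between arrays the ratio was 1.50 and 1.82. No test of the ratio was made, and with 4 fetuses a group each SD rests on few values.

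**Figure D2:**
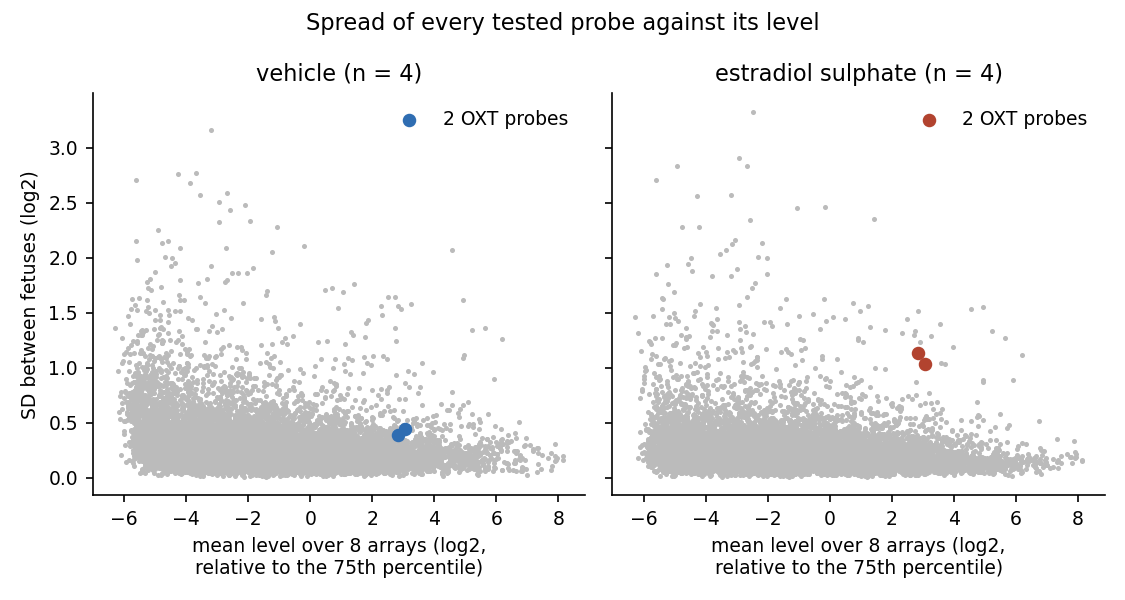
SD between the 4 fetuses of each group (log2) against the mean level over 8 arrays (log2, relative to the 75th percentile) for the 11749 probes tested; coloured points are the 2 *OXT* probes. In vehicle fetuses they sit nearer the body of probes of their level (SD 0.44 and 0.39), and after estradiol sulphate well above it (SD 1.03 and 1.14).

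The variation between repeat spots is given for scale. It covers the spot only, not labelling, RNA or the animal. For 36 probes spotted more than once, the SD between spots on the same array had a median of 0.09 and a 90th percentile of 0.27 on the log2 scale. The *OXT* probes followed each other with a Pearson r of 0.996 over the 8 arrays (Spearman 0.929), as a description of probes that share 59 of their 60 bases. A_70_P039696 was brighter than A_70_P039697 on 8 of 8 arrays, by 1.09-fold to 1.33-fold. The log2 gap was 0.23, 0.15, 0.23 and 0.12 in vehicle replicates 1 to 4 and 0.41, 0.36, 0.14 and 0.19 in estradiol sulphate replicates 1 to 4. It was widest in estradiol sulphate replicates 1 and 2, the fetuses with the least *OXT* signal. The group means of the gap, 0.28 ± 0.13 and 0.18 ± 0.06 (SD, n = 4 each), differed by 0.09 (exact two-sided permutation test, p = 0.314), so a difference between the probes in their treatment difference was not detectable with 4 fetuses a group. With another background correction, normexp with quantile normalization, the gap ran from -0.0031 to 0.30, so the order of the probes was not kept on every array.

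The array holds 244 probe pairs shifted by 1 base, 137 of them well above background on all 8 arrays. The SD of the gap over arrays was 0.11 for *OXT* and had a median of 0.09 over these pairs, and 56.2% of pairs had a lower SD. The mean gap of *OXT*, 0.23, was larger than in 83.2% of pairs, whose median was 0.09. The group difference of the gap, 0.09 for *OXT*, had a median size of 0.03 over these pairs, and 81.8% of pairs had a smaller one. The *OXT* probes thus had an SD of the gap near the middle of such pairs, but a mean gap and a group difference of the gap larger than in most.

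Leaving out single arrays moved the size of the difference but not its sign. Without estradiol sulphate replicate 2, the fetus with the least *OXT*, the difference of A_70_P039696 was -0.45, 1.37-fold (limma, adjusted p = 0.887). Without estradiol sulphate replicate 4, the treated fetus with the most, it was -1.25, 2.37-fold, with an adjusted p of 0.463. For A_70_P039697 the same omissions gave -0.51 and -1.37, and without estradiol sulphate replicate 4 both probes had an unadjusted limma p under 0.05. Without any one of the vehicle fetuses it stayed between -1.01 and -0.74 for A_70_P039696. No omission brought either probe past the adjusted threshold.

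The scaling between arrays moved the result as far as any fetus did. Without scaling, a setting added after the data were seen, the difference of A_70_P039696 was -0.37 (1.29-fold) and that of A_70_P039697 -0.47 (1.38-fold). The mean of both probes then differed by -0.42 with p = 0.457 in the exact two-sided permutation test. The vehicle fetuses spread more without scaling (SD 0.66 against 0.44 for A_70_P039696), since vehicle replicate 4 had the dimmest array. In unscaled intensity, estradiol sulphate replicate 1 (8402) was no longer below vehicle replicate 4 (8381) with A_70_P039696. Estradiol sulphate replicate 2 was the dimmest of all fetuses either way. Without scaling the median difference over all probes tested was 0.55, so *OXT* was low there against an array-wide shift upwards.

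**Figure D3:**
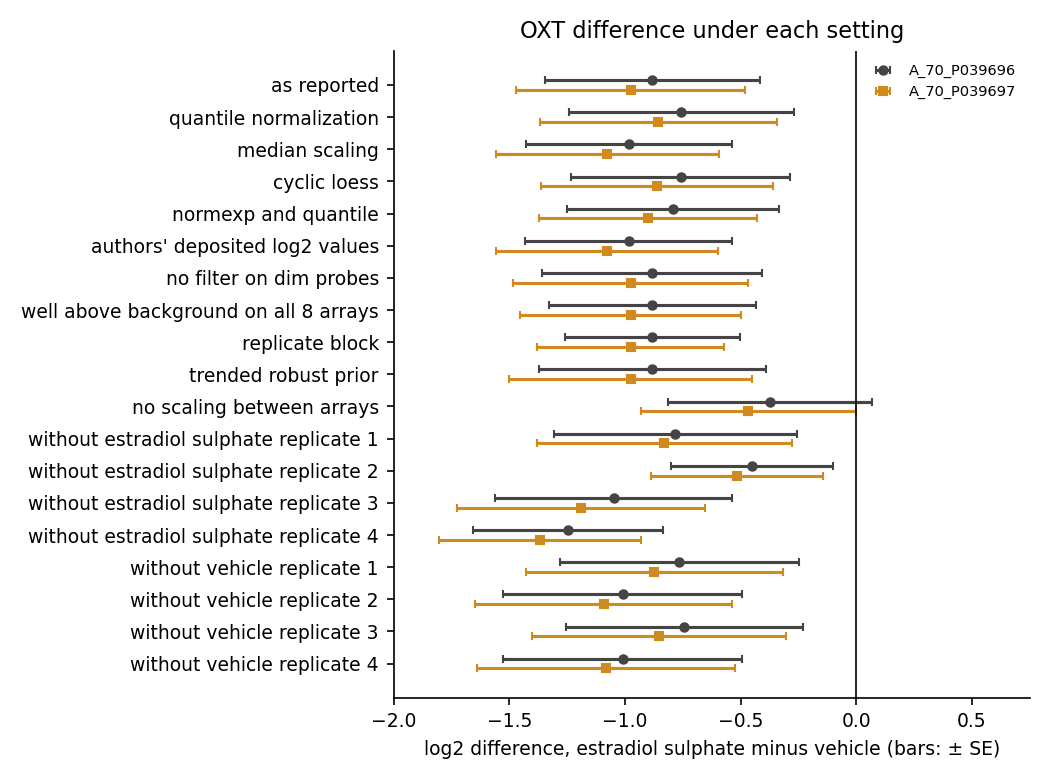
Log2 difference in *OXT*, estradiol sulphate minus vehicle, with its standard error, for both probes as reported, under 10 other settings of scaling, background, filter or model, and without each of the 8 arrays. Every point lies below 0; the points nearest 0 are those without scaling (-0.37 and -0.47) and those without estradiol sulphate replicate 2 (-0.45 and -0.51).

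Few of the genes that act with oxytocin were found among the named probes. A name was found for 10.7% of the array's probes, so unnamed probes may cover others. Of 6 neurohypophysial hormones and receptors, 3 were named on the array and 2 tested, *OXT* and *AVPR1B*, and both lay below 0 with the gene's brightest probe. *AVPR1B*, a vasopressin receptor known from pituitary corticotrophs, read -4.48 ± 0.04 after estradiol sulphate and -4.32 ± 0.18 (SD, n = 4 each), a log2 difference of -0.15 (limma, adjusted p = 0.756). It turned to 0.36 without scaling. The second tested probe of *AVPR1B* differed by 0.09 (limma adjusted p = 0.919), so its probes disagree in sign. *OXTR*, the oxytocin receptor, was too dim to be tested. Its brighter probe was well above background in 3 of 4 estradiol sulphate fetuses and in 0 of 4 vehicle fetuses. Its mean over all 4 estradiol sulphate fetuses was 1.16-fold a bound set from the lowest vehicle signals well above background. That bound was computed with this scaling only. The log2 difference of the brighter probe was 0.82 as reported and 0.17 with normexp and quantile normalization. Its other probe was well above background in 2 and 0 fetuses and allowed no bound. Vehicle replicate 4 read -5.41 with the brighter probe, the level of estradiol sulphate replicate 4 (-5.40), and above estradiol sulphate replicate 1 (-5.67), so the groups overlapped.

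The enzymes that turn the precursor into oxytocin were represented by 2 of 13 genes of peptide processing and granins, both above 0 and neither past the test. *PCSK1*, a convertase that cuts prohormones, differed by 0.40 (limma, adjusted p = 0.808), and *CPE*, the carboxypeptidase that trims the cut ends, by 0.23 (adjusted p = 0.753). *CPE* was bright in every fetus, from 3.24 to 3.98. Of 9 transcription factors of the magnocellular and paraventricular nuclei, *ARNT2*, a partner of SIM1 in forming these neurons, was the only one named, and no vehicle fetus had it well above background.

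Nuclear receptors studied at the *OXT* promoter gave 4 tested genes of 11. With the brightest probe of each all 4 lay above 0, with a median difference of 0.16 against 0.04 over all probes, and 0 past the adjusted threshold in limma. *ESR2*, the estrogen receptor that oxytocin neurons are known for, read -4.38 ± 0.33 after estradiol sulphate and -4.79 ± 0.13 in vehicle fetuses (SD, n = 4 each). It differed by 0.41 (limma adjusted p = 0.536), with an unadjusted p under 0.05, as had 9.06% of all probes tested. The difference was 0.26 with quantile normalization, 0.20 with cyclic loess and 0.18 with normexp and quantile normalization. With each of these the unadjusted limma p was above 0.05. The second *ESR2* probe was not well above background on any array. The probes of *ESR1*, the other estrogen receptor, disagreed in sign. The brighter one, named from a description that matches a cattle sequence, differed by 0.07 (limma adjusted p = 0.985) and changed sign with median scaling, with the authors' values and without some arrays. The other one, named for the sheep gene, differed by -0.49 (limma adjusted p = 0.713) and lay below 0 under all 17 alternatives, at 0.02 without scaling. *THRB*, a thyroid hormone receptor, differed by 0.11 and turned below 0 with cyclic loess. The probes of *PGR*, the progesterone receptor, agreed in sign but not in size. The brighter one differed by 0.21 (limma adjusted p = 0.761) and turned below 0 with cyclic loess. The second read -4.83, -4.93, -5.36 and -5.26 in vehicle replicates 1 to 4 and -4.29, -4.31, -4.62 and -4.41 in estradiol sulphate replicates 1 to 4. All 4 treated fetuses lay above all 4 vehicle fetuses with that probe. The groups were free of overlap, in either direction, in 5.91% of all probes tested. That *PGR* probe was well above background in 2 vehicle fetuses (difference 0.69, limma adjusted p = 0.383, unadjusted p under 0.05). Its difference was 0.51 with cyclic loess and 0.23 with normexp and quantile normalization. *THRA*, the other thyroid hormone receptor, was not well above background on any vehicle array.

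Of 8 peptides found together with oxytocin in magnocellular neurons, the array named *GAL* and *ADCYAP1*, and both lay above 0 where *OXT* lay below. *GAL*, the gene of galanin, read -1.28, -1.46, -2.02 and -0.48 in vehicle replicates 1 to 4 and -1.85, 0.94, 0.18 and -0.43 in estradiol sulphate replicates 1 to 4. It was highest in estradiol sulphate replicate 2, the fetus with the least *OXT*, and the groups overlapped (difference 1.02, limma adjusted p = 0.623). *ADCYAP1*, the gene of the peptide PACAP, read 3.83, 2.38, 2.28 and 4.09 in the vehicle fetuses and 3.33, 4.45, 3.07 and 3.26 in the others. It too was highest in estradiol sulphate replicate 2 and the groups overlapped (difference 0.39, adjusted p = 0.857).

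As a check of the tissue, 13 of 19 other hypothalamic peptides were named on the array and 12 were well above background in enough fetuses to be tested, 7 above 0 and 5 below, with a median of 0.22. None passed after adjustment, and 4 had an unadjusted p under 0.05 in limma, as had 9.06% of all probes tested. The 3 with the smallest p were *NPY*, *AGRP* and *GHRH*, the genes of neuropeptide Y, agouti-related peptide and growth hormone releasing hormone, which are made in the arcuate nucleus and not in oxytocin neurons. *NPY* read 0.64, -0.80, -0.75 and 0.35 in vehicle replicates 1 to 4 and 1.14, 2.42, 1.51 and 0.79 in estradiol sulphate replicates 1 to 4. It was highest where *OXT* was lowest. *AGRP* and *GHRH* were also at their highest in estradiol sulphate replicate 2, at 1.30 and 0.29. Both were well above background in 4 estradiol sulphate fetuses but in only 2 vehicle fetuses, so signal limits the size of their differences. The vehicle fetuses alone would not have brought either gene through the filter. These differences were 3.66 and 2.57 as reported, and 2.63 and 1.83 with normexp and quantile normalization.

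**Figure D4:**
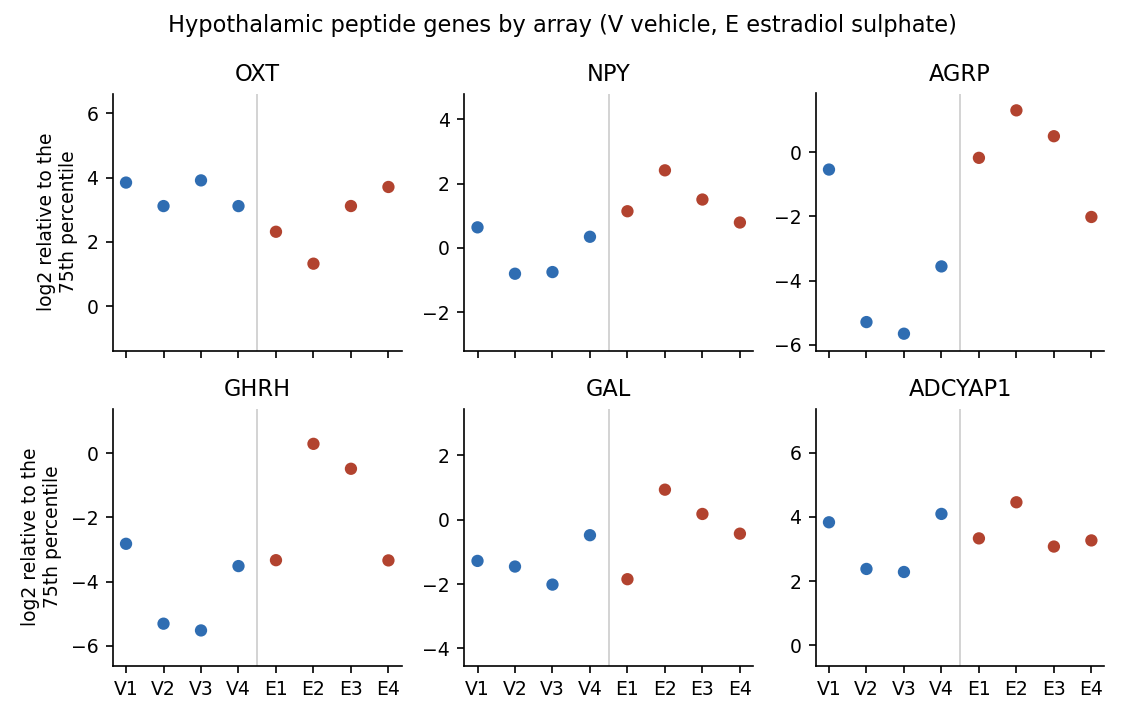
Level of *OXT* (probe A_70_P039696) and of 5 other peptide genes in each fetus (log2 above the array's 75th percentile; V vehicle, E estradiol sulphate, digits the replicate; every panel spans the same number of log2 units). In estradiol sulphate replicate 2 *OXT* is at its lowest (1.32) and the other 5 are at their highest. Of the tested peptide genes not shown, *POMC*, *SST* and *TAC3* were also highest in that fetus by their brightest probe. *GNRH1*, *PMCH*, *NPVF*, *TAC1*, *GRP* and *UCN* were highest in another fetus.

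Over the 8 fetuses, *OXT* and *NPY* had a Pearson r of -0.69 (exact permutation test, p = 0.0581, Benjamini-Hochberg adjusted p = 0.393 over 14 peptide genes) and a Spearman rho of -0.52 (p = 0.197, adjusted p = 0.720). Without the 2 fetuses farthest from the median of *OXT*, estradiol sulphate 1 and 2, r was -0.15. For *AGRP* r was -0.57 and -0.05 without them, and for *GHRH* -0.61 and -0.28. Leaving out the extremes narrows the range of *OXT*, which can lower r by itself, so these values cannot decide what the relation rests on. As a description, r for *NPY*, *AGRP* and *GHRH* was -0.83, -0.80 and -0.52 within the estradiol sulphate fetuses. Within the vehicle fetuses it was 0.09, 0.27 and 0.06. *NPY*, *AGRP* and *GHRH* were chosen by the p of their group difference, and a group difference also enters r over the 8 fetuses. Over the 14 peptide genes r ran from -0.69 for *NPY* to 0.52 for *GRP*, with *POMC* at -0.68 and *NPVF* at 0.37. None of the 14 relations passed, and with 4 fetuses a group no relation was tested within a group.

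Among the 757 named genes tested, those most like *OXT* over the 8 fetuses by Pearson r with the mean of both probes were *ABHD5* (0.89), a co-activator of triglyceride breakdown, *CP* (0.88), the copper protein ceruloplasmin, *SRP14* (0.87), part of the signal recognition particle, the centromere protein gene that the design calls *CENP-B* (0.86), *SLC2A5* (0.83), a fructose transporter, and *LCAT* (0.81), which esterifies cholesterol. *CP* was the one that moved most: it read -4.98, -4.34, -4.11 and -5.04 in vehicle replicates 1 to 4 and -5.85, -6.23, -5.01 and -4.12 in estradiol sulphate replicates 1 to 4. Like *OXT*, it was lowest in estradiol sulphate replicates 1 and 2. *SRP14* had an r of 0.46 with quantile normalization. The most opposed were *GRIA2* (-0.93) and *GRIA4* (-0.92), which encode glutamate receptor subunits, *COL1A2* (-0.91), a collagen chain, and *TRA2A* (-0.90), a splicing factor. *GRIA2* read 0.90, 1.05, 0.65 and 1.26 in the vehicle fetuses and 1.45, 1.79, 0.89 and 1.04 in the others, and was highest in estradiol sulphate replicates 1 and 2. The genes were picked for their r with *OXT*, so extremes in the same fetuses follow in part from that choice. These are descriptions over 8 arrays, in which *OXT* itself correlated with the log2 75th percentile of the array at -0.42. With group means removed, 3 of the 6 most like and 3 of the 4 most opposed genes were again in the list, and with quantile normalization 3 and 3.

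Markers of other cells were few among the named probes. Of 9 astrocyte and pituicyte markers 6 were named and all 6 were well above background in every fetus. Their summed level was 6.18 to 6.58 after estradiol sulphate and 5.93 to 6.53 in vehicle fetuses, and 5 of 6 lay above 0. Of 9 pituitary markers 6 were named, with a summed level of 4.20 to 4.84 and 3.97 to 4.94. That sum is nearly all 1 probe of *LHB*, A_70_P039602, at 3.87 to 4.93 over the 8 fetuses, while the other *LHB* probe read -3.25 to -2.63, so it does not describe the class. *FSHB* and *POU1F1* were not well above background in any fetus. *CGA*, the subunit shared by the glycoprotein hormones, ran from -5.43 to 0.57 and *TSHB* from -8.10 to -1.82 over the 8 fetuses. Of 6 choroid plexus markers 2 were named. *TTR*, the transthyretin gene that the choroid plexus expresses strongly, read -3.12, 0.29, 1.25 and 2.67 in estradiol sulphate replicates 1 to 4 and -0.87 to -0.39 in vehicle fetuses. The treated fetuses thus varied more than the vehicle fetuses in *TTR* as in *OXT*, with estradiol sulphate replicate 4 highest in both, while the lowest fetus was replicate 1 in *TTR* and replicate 2 in *OXT*. Of 8 endothelial markers 4 were named and 3 tested, all above 0 with the brightest probe of each. *FLT1* was well above background in 4 estradiol sulphate and 0 vehicle fetuses, and thus passed the filter through the estradiol sulphate group alone. Its difference was 1.00 as reported and 0.36 with normexp and quantile normalization. *KDR* was well above background in 4 and 2 fetuses. Of 8 microglial markers only *ITGAM* was named, at 0.40 above vehicle. No neuron or oligodendrocyte marker and no gene of secretory vesicle release was named. Of the 8 genes listed for cortex and striatum only *LEF1* was named, and 1 gene does not mark those tissues. Its brightest probe was higher by 1.09 (limma adjusted p = 0.249), or by 0.40 with normexp and quantile normalization. That probe was well above background in 4 estradiol sulphate fetuses and in 1 vehicle fetus. The part of cell makeup, dissection or RNA quality in the *OXT* difference was not tested.

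Among further lists, all 5 immediate early genes tested lay above 0 with the brightest probe of each, with a median of 0.28, and none passed. Of all probes tested, 42.5% lay below 0. *EGR1*, at 0.03, turned to -0.08 with median scaling and with the authors' values. Another tested probe of *FOS* lay at -0.24, while the other tested probes of *FOS* lay above 0. Of 11 genes listed for steroid sulphate handling 3 were named and 2 tested. *SLCO2A1*, known as a prostaglandin transporter, lay above 0 and *ABCG2* below, and *SULT2A1* was not well above background in any fetus.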

How the data were processed

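Hypothalamic RNA of 8 fetuses was labelled with Cy3 and hybridised to 8 one-colour arrays. Per the file headers, intensity was extracted by Agilent Feature Extraction 10.1.1.1, which subtracted background within each array; the deposited processed intensity is not normalized between arrays. A table of log2 values deposited by the authors was an alternative; each column was equal to log2 processed intensity minus a constant for at least 99.6% of values (within 0.001); column medians ran from 0.0576 to 0.0750, its direction and scale are thus known, and how the constant was set is not known here.

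Control and outlier-flagged spots were left out, spots of a probe averaged on log2, and each array's 75th percentile subtracted. Probes well above background on at least 4 of 8 arrays were tested (11749 kept, 3259 removed) with limma 3.58.1 in R 4.3.3 (lmFit, eBayes, group only, two-sided, Benjamini-Hochberg adjustment over all tested, threshold 0.05). The 4 arrays of a group limit the precision. Single values had exact permutation tests (scipy 1.17.1). The model was tested on simulated data. The arrays shared 1 slide and 1 scan time. A name was found for 1606 probes (10.7%), from the design's symbols and descriptions, updated by hand from older names; a gene's brightest probe stands for it. Each fetus was a replicate. Co-twins were used, but the labels do not tie equal numbers to a twin set, so the number was not taken as pairing. Deviations of same-numbered fetuses correlated at 0.24, -0.01, 0.19 and 0.25. Fetuses of different number were not compared, so these values do not decide whether equal numbers mark co-twins. Equal numbers also shared a position number on the slide, so a twin set and that position cannot be told apart.

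Named genes were *OXT*, all array-named members of 5 oxytocin lists, at most 3 members of smallest p in 12 other lists, and the 6 named genes most like and 4 most opposed to *OXT*; markers named one by one beyond that were chosen after their values were seen. The members and lists were chosen with earlier results of these data known. For a probe not well above background in a group, a bound sets the brighter group's mean against the mean, over the dimmer group's arrays, of the higher of its signal and the lowest signal well above background.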

Additional observations from a re-analysis of the deposited data

Results flagged for a closer look

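In 50 groups of 4 fetuses checked over the *OXT* probes and the other genes described, Dixon's ratio of gap to range passed its 95% critical value in 2, and chance flags about 1 in 20 groups. Neither was an *OXT* probe. *THRB* read -2.83 in estradiol sulphate replicate 1, above the -3.20 to -3.14 of the other treated fetuses. *LCAT* read 1.04 in estradiol sulphate replicate 2, below the 1.54 to 1.62 of the other treated fetuses. That fetus also had the least *OXT*, but *LCAT* was picked for its likeness to *OXT*, so this is not a separate observation.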

How the results depend on the processing

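The *OXT* difference stayed below 0 and short of the adjusted threshold under all 17 alternatives and without scaling: -1.25 to -0.45 for A_70_P039696 and -1.37 to -0.51 for A_70_P039697 over the 17, with limma adjusted p of 0.463 to 0.896 and 0.442 to 0.884. With the replicate number as a block, the limma adjusted p was 0.515 and 0.506, with the unadjusted p under 0.05 for A_70_P039697 alone (mean of both probes -0.93), and 1158 probes had an unadjusted p under 0.05; 0 probes passed the adjusted threshold with the block, as without it. The mean of both probes ran from -1.31 to -0.48, and the group difference of the gap between the probes from 0.05 to 0.14 without single arrays. The number of probes at an unadjusted p under 0.05, 1065 as reported, was 693 with quantile normalization, 2107 with no filter on dim probes, 5117 without scaling (21 past the adjusted threshold there, 0 under every other setting), and 687 (without estradiol sulphate replicate 2) to 1291 without single arrays. *ESR1* turned to -0.034 with median scaling, to -0.036 with the authors' values, and ran from -0.38 to 0.40 without single arrays. *THRB* turned to -0.046 and *PGR* to -0.018 with cyclic loess, *AVPR1B* to 0.36 without scaling, and the other *ESR1* probe to 0.018 without scaling. The second *AVPR1B* probe (0.09) turned to -0.099 with quantile normalization, -0.011 with median scaling, -0.042 with cyclic loess, -0.13 with normexp and quantile, and -0.012 with the authors' values, and ran from -0.073 (without vehicle replicate 4) to 0.18 without single arrays. The cause of these changes was not tested. The setting without scaling, the leave-outs of the probe gap and the alternatives for genes other than *OXT* were added after the data were seen. Signal limits *OXTR*, *ARNT2* and *THRA*, which were not well above background on any vehicle array.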
